A study of Mus musculus with 17 samples.

Results

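Regulators of G protein signalling (RGS proteins) bind the GTP-loaded alpha subunit of a heterotrimeric G protein and speed its hydrolysis of GTP, so that a signal from a G protein-coupled receptor ends sooner. Members of the family differ in the alpha subunits they act on and in the domains they carry beside the RGS domain, and in neurons they shape the signals of transmitters such as glutamate, acetylcholine, dopamine and opioids. The 10 genes described here, Rgs2, Rgs4, Rgs8 and Rgs16 of the small R4 subfamily, Rgs6, Rgs7 and Rgs9 of the R7 subfamily, Rgs10 and Rgs12 of the R12 subfamily and Rgs20 of the RZ subfamily, were chosen by symbol out of 55471 genes in a table of raw counts. All 10 were found in the table.

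Counts came from total hippocampal RNA of male C57BL/6 mice (C57BL/6J in the methods of the study) aged 3 to 6 months, with 1 animal for each of 17 libraries. CBP-ifKO mice carried floxed Crebbp alleles and a creERT2 transgene under the Camk2a promoter, and after tamoxifen their forebrain excitatory neurons make a truncated CBP (CREB binding protein, a lysine acetyltransferase) without acetyltransferase activity, while other hippocampal cells keep the intact gene. Controls were tamoxifen-treated littermates, which the methods of the study describe as lacking creERT2, although the labels name that transgene for them too. Kindling used repeated injections of pentylenetetrazole (PTZ), a GABA-A receptor antagonist that provokes seizures. The Sal groups had saline without kindling, the PTZ0 groups had saline a week after kindling, and the PTZ45 groups had a last dose of 45 mg/kg PTZ at that time. Hippocampi were collected 45 min after the final injection. Each genotype and treatment had 3 libraries, except Control PTZ45 with 2. The comparisons ask whether the RGS genes respond to PTZ, whether kindling leaves a trace on them, and whether either depends on CBP. The study reports that repeated PTZ came to induce seizures in all Controls, while no CBP-ifKO reached the stage of progressive seizures. Genotype and seizures therefore cannot be told apart where PTZ0 or PTZ45 groups are compared between genotypes.

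Libraries held 5831992 to 18735643 counts, and no 2 of a group looked like the same library, since the chi-square of their counts per degree of freedom was 2.31 to 18.01 over 16 pairs. Normalized counts of Crebbp were 1061 to 1337 in the 9 CBP-ifKO libraries and 1824 to 2429 in the 8 Control libraries, and those of Esr1, whose sequence is part of creERT2, were 703 to 941 and 41 to 77.8. Every marker of every hippocampal cell type list was above 0 in all libraries. Summed choroid plexus markers were 10813 to 44317 in 5 libraries (Control Sal 2, Control PTZ0 2, CBP-ifKO Sal 1, CBP-ifKO PTZ0 3 and CBP-ifKO PTZ45 2) and 438 to 1146 in the other 12, which include both Control PTZ45 libraries. The labels place the Control Sal and Control PTZ0 libraries in lane 3 of the sequencer, Control PTZ45 and CBP-ifKO Sal in lane 4, and CBP-ifKO PTZ0 and PTZ45 in lane 5. Control PTZ0 against Sal and CBP-ifKO PTZ45 against PTZ0 are therefore within a lane. In the other comparisons of 2 groups, and in the tests of interaction below, the lane and the group cannot be told apart. The fit of genotype over all treatments had no term for the lane.

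The RGS genes spanned a wide range of levels in unstimulated control hippocampus. Divided by the exonic length given in the table, Rgs4 was the most abundant member in Control Sal, with 565 ± 79.2 normalized counts per kb (SD, n = 3). Rgs7 followed with 165 ± 1.84 normalized counts per kb, Rgs10 with 121 ± 6.6, Rgs2 with 107 ± 0.998 and Rgs8 with 88.1 ± 12.6. Rgs12 had 57.7 ± 2.33 per kb, Rgs9 30 ± 0.783, Rgs20 24.9 ± 2.14, Rgs16 24.1 ± 3.96 and Rgs6 16.1 ± 2.24. In this order the libraries of Rgs20 and Rgs16 overlapped, and no other neighbours did. Rgs4, Rgs8, Rgs12, Rgs9 and Rgs20 held ranks 1, 5, 6, 7 and 8 in all 6 groups. Rgs2 held rank 4 in 5 groups and rank 2 in Control PTZ45, where it reached 377 normalized counts per kb. The exonic length joins the exons of all annotated transcripts, so the level per kb of a gene with many isoforms, such as Rgs6 with 10023 exonic bases, is a lower estimate than for a compact gene such as Rgs10 with 1711.

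**Figure D1:**
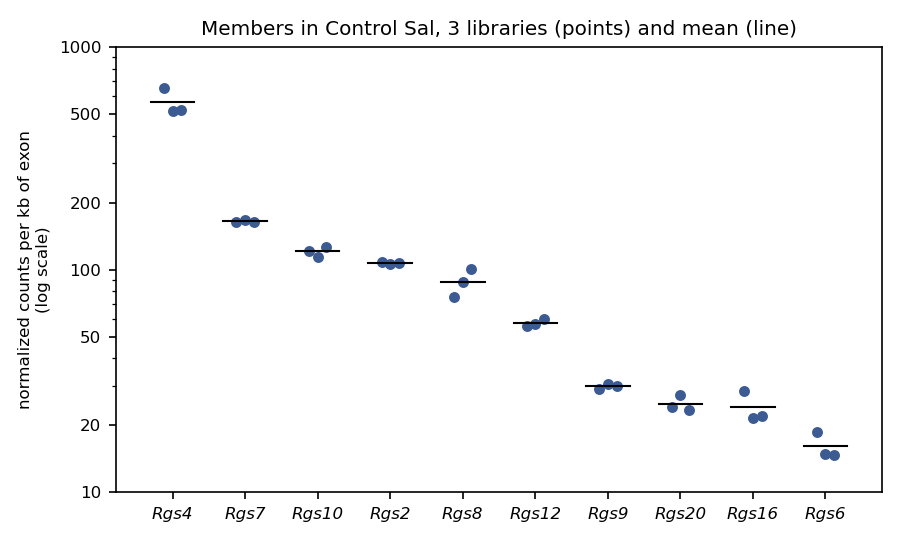
Normalized counts per kb of exon (log scale) of the 10 RGS genes in Control Sal, with 3 libraries as points and the mean as a line. Rgs4 lies highest at a mean of 565 and Rgs6 lowest at 16.1, and the points of Rgs20 and Rgs16 overlap.

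Several of these genes are neighbours. Of the 10, 6 lie on chromosome 1 of GRCm38, namely Rgs20 (chr1:4909576-5070285), Rgs2 (chr1:143999338-144004161), Rgs8 (chr1:153653025-153700323), Rgs16 (chr1:153740349-153745468), Rgs4 (chr1:169741477-169747642) and Rgs7 (chr1:175059087-175492500). Rgs8 and Rgs16 are 40.0 kb apart, Rgs4 lies 45.7 kb from Rgs5, and Rgs2 lies 134.5 kb from Rgs13. The strand setting of the counting is not given in the sources used here. Exons of Rgs8, Rgs16, Rgs6 and Rgs12 overlap an annotated antisense RNA on the opposite strand, by 70, 236, 77 and 295 bases, and those of Rgs20 overlap Atp6v1h by 127 bases and a pseudogene by 125, so the counts of these 5 genes may include reads of their partner.

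Among the members Rgs2 had the largest rise after PTZ. RGS2 is an inhibitor of Gq signalling with a short-lived, stimulus-responsive transcript. Rgs2 had 391, 384 and 386 normalized counts in Control Sal, 387, 395 and 428 in Control PTZ0, and 1395 and 1342 in Control PTZ45. Both libraries taken after PTZ lay far above all 6 control libraries that received saline at the end. The difference was 3.53-fold over Sal (log2 fold change 1.82, SE 0.11, adjusted p = 5e-62) and 3.39-fold over PTZ0 (log2 fold change 1.76, SE 0.10, adjusted p = 1.03e-67). Adjusted p-values are from the Wald test of DESeq2 over all genes, and a gene is called at an adjusted p under 0.05. In the CBP-ifKO libraries that share lane 4 with Control PTZ45, those of the Sal group, Rgs2 was 305 to 328.

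Rgs4 rose as well, by less. RGS4 acts on both Gi/o and Gq alpha subunits and is abundant in forebrain neurons. Its normalized counts were 2035, 1607 and 1614 in Control Sal, 1996, 1837 and 1907 in Control PTZ0, and 3437 and 3030 in Control PTZ45. The groups that received PTZ and saline at the end again did not overlap. Rgs4 was 1.84-fold higher than in Sal (log2 fold change 0.88, SE 0.11, adjusted p = 9.84e-13) and 1.69-fold higher than in PTZ0 (0.76, SE 0.08, adjusted p = 1.44e-19). In a bulk sample, more RNA per cell and more cells that express a gene cannot be told apart.

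Rgs2 and Rgs4 were the called members in both control comparisons, 2 of 10 against Sal, where 1.17% of all tested genes were called, and 2 of 10 against PTZ0, where 1.25% were. None of the remaining 8 was called in either. The median log2 fold change of the 10 members over Sal was -0.01, beside 0.01 for all genes, and over PTZ0 it was 0.19 beside -0.00. Fos, Npas4, Arc and Egr1, early genes used as a check of the treatment, were all called higher in both control comparisons. Fos had 2915 and 2483 normalized counts in Control PTZ45 against 23.7 to 62.4 in the 6 other control libraries.

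**Figure D2:**
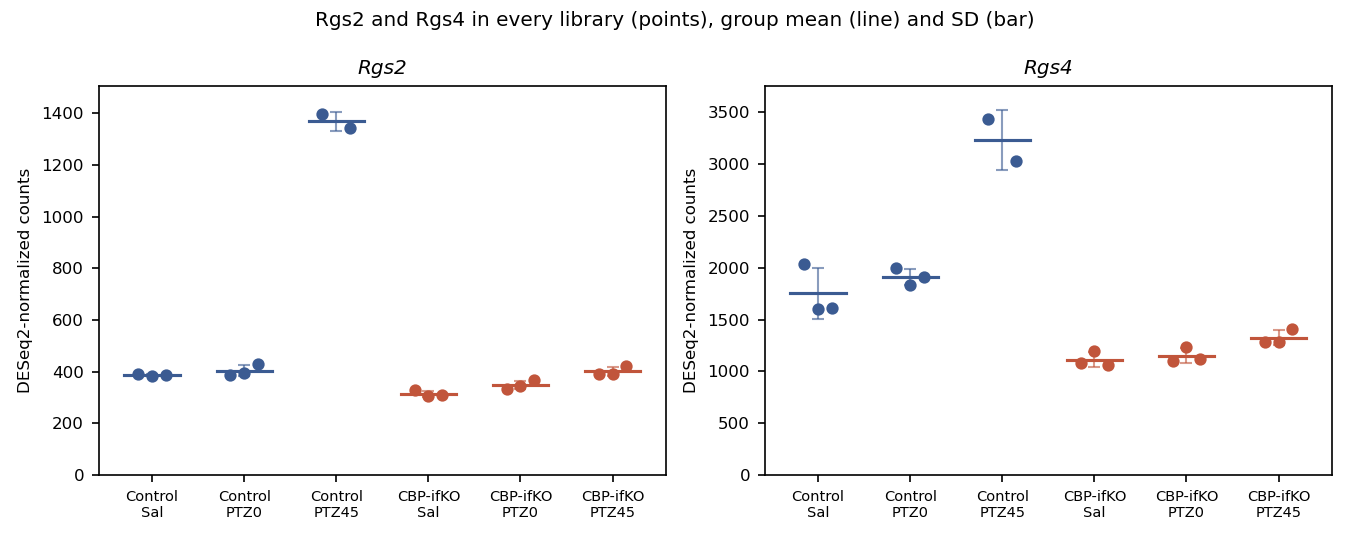
Normalized counts of Rgs2 (left) and Rgs4 (right) by group, with each library as a point, the group mean as a line and the SD as a bar (n = 3, and 2 in Control PTZ45). Both genes stand apart in Control PTZ45, with Rgs2 at 1342 to 1395 and Rgs4 at 3030 to 3437, and all 9 CBP-ifKO libraries lie below all 8 Control libraries for Rgs4.

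The start regions of the responsive pair are shown because CBP is recruited by CREB, whose full binding site (the cAMP response element, CRE) reads TGACGTCA, with TGACG as its core. The 250 bases before the RefSeq start site (GRCm38.p6, minus strand, written 5′ to 3′ on the strand of the gene) span chr1:144004150-144004399 for Rgs2 and chr1:169747643-169747892 for Rgs4. Capitals mark this core in either orientation.
Rgs2: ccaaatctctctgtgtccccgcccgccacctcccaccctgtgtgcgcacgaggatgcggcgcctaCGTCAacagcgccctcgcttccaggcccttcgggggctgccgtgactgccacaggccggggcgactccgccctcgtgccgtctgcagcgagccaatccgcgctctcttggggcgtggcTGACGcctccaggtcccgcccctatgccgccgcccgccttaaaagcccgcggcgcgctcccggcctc
Rgs4: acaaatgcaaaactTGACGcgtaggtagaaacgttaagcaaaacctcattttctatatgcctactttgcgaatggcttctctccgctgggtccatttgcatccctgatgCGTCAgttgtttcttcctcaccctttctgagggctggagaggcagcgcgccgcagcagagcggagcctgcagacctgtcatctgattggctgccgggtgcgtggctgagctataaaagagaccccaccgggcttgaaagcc
Each window held the core in both orientations, at positions -185 to -181 and -67 to -63 from the start site in Rgs2 and at -236 to -232 and -141 to -137 in Rgs4. Windows were found for 9 of the 10 members, 12 windows in all, and Rgs20 had no entry. Both strands were searched, and every full site also contains the core. The core lay in 4 of the 12 member windows (Rgs2, Rgs4, Rgs8 and Rgs12) and in 17.8% of all 32851 RefSeq windows of this length. TGACGTCA was in 0 of 12 and in 1.55% of all windows, and the AP-1 motif TGANTCA was in 1 of 12, in Rgs12, and in 6.75%. Neither the EGR motif GCGTGGGCG (0.536% of all windows) nor the CArG box (1.47%) was in a member window. These are matches of letters, and no binding was measured here.

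In CBP-ifKOs the response of both genes was small. Rgs2 had 328, 305 and 310 normalized counts in CBP-ifKO Sal, 332, 346 and 366 in PTZ0, and 391, 392 and 422 in PTZ45. The PTZ45 libraries lay above all 6 others of this genotype, and within the range of the control libraries that received saline. The log2 fold change over Sal was 0.34 (95% interval 0.10 to 0.59, adjusted p = 0.578), and that over PTZ0, within lane 5, was 0.20 (-0.03 to 0.43, adjusted p = 1). Rgs4 had 1077, 1197 and 1063 normalized counts in CBP-ifKO Sal, 1102, 1233 and 1120 in PTZ0, and 1284, 1288 and 1407 in PTZ45. Again the PTZ45 libraries did not overlap the others of their genotype, yet each lay below the lowest Control Sal library, at 1607. For Rgs4 the log2 fold change was 0.26 over Sal (0.08 to 0.44, adjusted p = 0.546) and 0.20 over PTZ0 (0.03 to 0.37, adjusted p = 1).

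DESeq2 called 0 of 10 members in CBP-ifKO PTZ45 against Sal, where 0.294% of all genes were called. At an unadjusted p under 0.05 there were 2, Rgs2 and Rgs4, and edgeR called 0. Against PTZ0 it also called 0 of 10, where 0.0872% of all genes were called, with 1 at an unadjusted p under 0.05 (Rgs4) and 0 by edgeR. A single fit of all 17 libraries called Rgs2 in CBP-ifKO PTZ45 against Sal (log2 fold change 0.34, adjusted p = 0.043). Fos was called in CBP-ifKOs, from 26.9 to 34 normalized counts in Sal to 163 to 288 in PTZ45.

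The difference between the responses of the genotypes was tested as an interaction. Over Sal, 2 of 10 members were called, Rgs2 with a log2 interaction of -1.48 (SE 0.15, adjusted p = 1.55e-20) and Rgs4 with -0.62 (SE 0.15, adjusted p = 0.00881), where 0.329% of all genes were called. Over PTZ0 the same pair was called, Rgs2 with -1.56 (SE 0.14, adjusted p = 8.48e-26) and Rgs4 with -0.55 (SE 0.11, adjusted p = 0.000345), where 0.423% of all genes were called. Both interactions rest on the same 2 Control PTZ45 libraries and on the same 3 CBP-ifKO PTZ45 libraries. The interaction of Rgs2 was called under every alternative tried. That of Rgs4 over Sal was lost in 9 of 18 alternatives, with log2 interactions of -0.75 to -0.53 over all 18. The adjusted p was 0.127 by edgeR, 0.559 without the 5 libraries high in choroid plexus markers and 0.676 without Control PTZ45 replicate 1, a fit that takes the remaining library to vary like the other groups. It was 0.129 without Control Sal replicate 2, 0.0712 without Control Sal replicate 3, 0.0839 without CBP-ifKO Sal replicate 2, 0.056 without CBP-ifKO PTZ45 replicate 1 and 0.055 without CBP-ifKO PTZ45 replicate 2. Over PTZ0 it was lost in 2 of 18, without Control PTZ45 replicate 1 (-0.46, adjusted p = 0.0769) and without those 5 libraries (-0.53, adjusted p = 0.149). For the remaining 8 members the interactions over Sal were between -0.23 and 0.15 and those over PTZ0 between -0.49 and 0.15, none of them called.

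**Figure D3:**
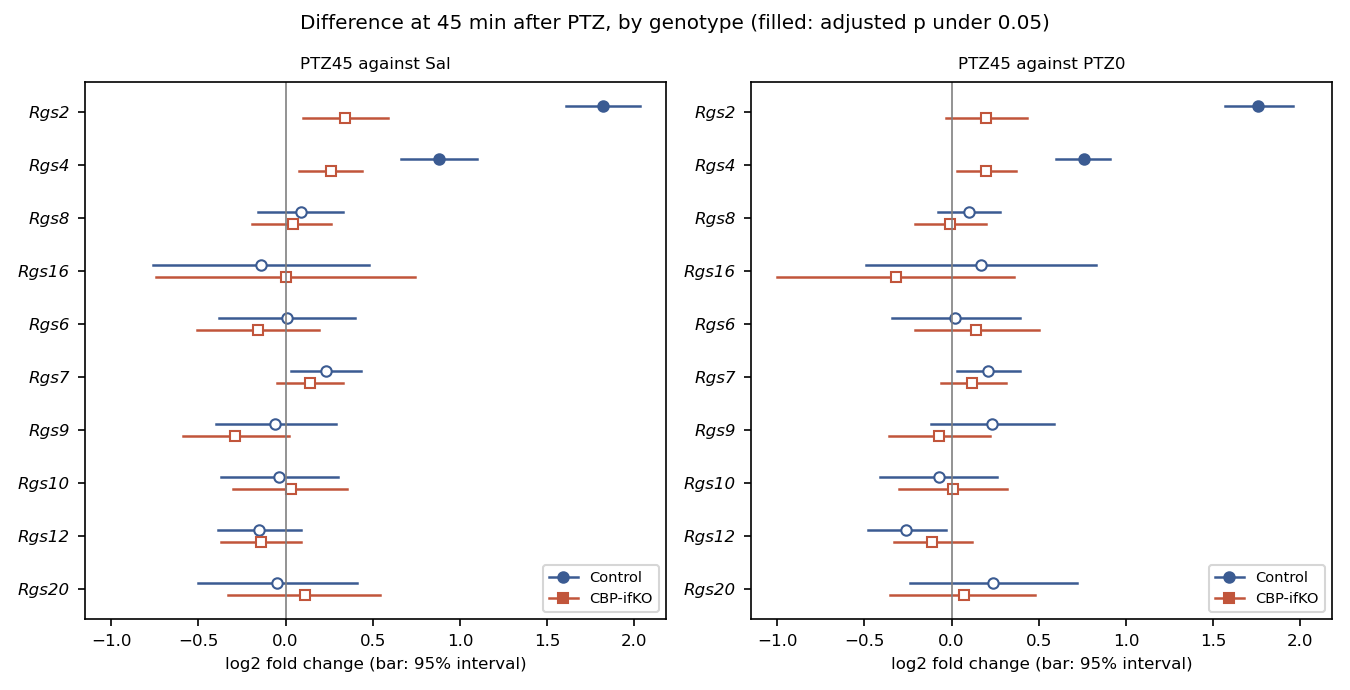
Log2 fold change of each RGS gene in PTZ45 against Sal (left) and against PTZ0 (right), in Controls (circles) and CBP-ifKOs (squares), with 95% intervals, filled where the adjusted p is under 0.05. Rgs2 and Rgs4 are filled in Controls, at 1.82 and 0.88 over Sal, and open in CBP-ifKOs, at 0.34 and 0.26.

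Among the rest of the R4 subfamily, Rgs8 and Rgs16 did not pass the test after PTZ. Rgs8, best known from cerebellar Purkinje cells, had 921 and 885 normalized counts in Control PTZ45 beside 729 to 971 in Sal and 823 to 870 in PTZ0, and 631 to 791 in CBP-ifKO PTZ45 beside 650 to 742 in Sal. Rgs16, whose product acts on Gi/o and Gq alpha subunits, had 53.1 and 50 in Control PTZ45 beside 50.5 to 67 in Sal and 36.3 to 55.2 in PTZ0. Its log2 fold change over Sal in Controls was -0.14 (-0.76 to 0.48), the widest interval of any member in that comparison.

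The R7 proteins act on Gi/o alpha subunits, as stable complexes with the beta subunit encoded by Gnb5. Rgs7, the member of this subfamily with the highest level per kb in hippocampus here, had 1090 and 1243 normalized counts in Control PTZ45, above all 6 control libraries that received saline, at 976 to 1057. Its log2 fold change was 0.23 over Sal (0.03 to 0.43, adjusted p = 0.5) and 0.21 over PTZ0 (0.03 to 0.39, adjusted p = 0.451). Rgs6 had 152 and 175 normalized counts in Control PTZ45 and 147 to 187 in Control Sal. Rgs9, known for its role in striatal dopamine signalling, had 174 and 196 in Control PTZ45, 187 to 197 in Sal and 149 to 166 in PTZ0.

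The R12 and RZ members did not pass the test either. Rgs10, a short RGS protein studied mainly in microglia, had 205 and 199 normalized counts in Control PTZ45 and 186 to 230 in the 6 other control libraries. Rgs12, a large scaffold with several protein interaction domains, had 443 and 442 in Control PTZ45, below the 473 to 549 of the other control libraries, with a log2 fold change over PTZ0 of -0.26 (-0.48 to -0.03, adjusted p = 0.476). Rgs20, which acts on Gz, had 107 and 96.7 in Control PTZ45 and 79.6 to 116 in the others. In CBP-ifKOs the log2 fold changes of the 8 members other than Rgs2 and Rgs4 were between -0.29 and 0.14 over Sal and between -0.32 and 0.14 over PTZ0.

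**Figure D4:**
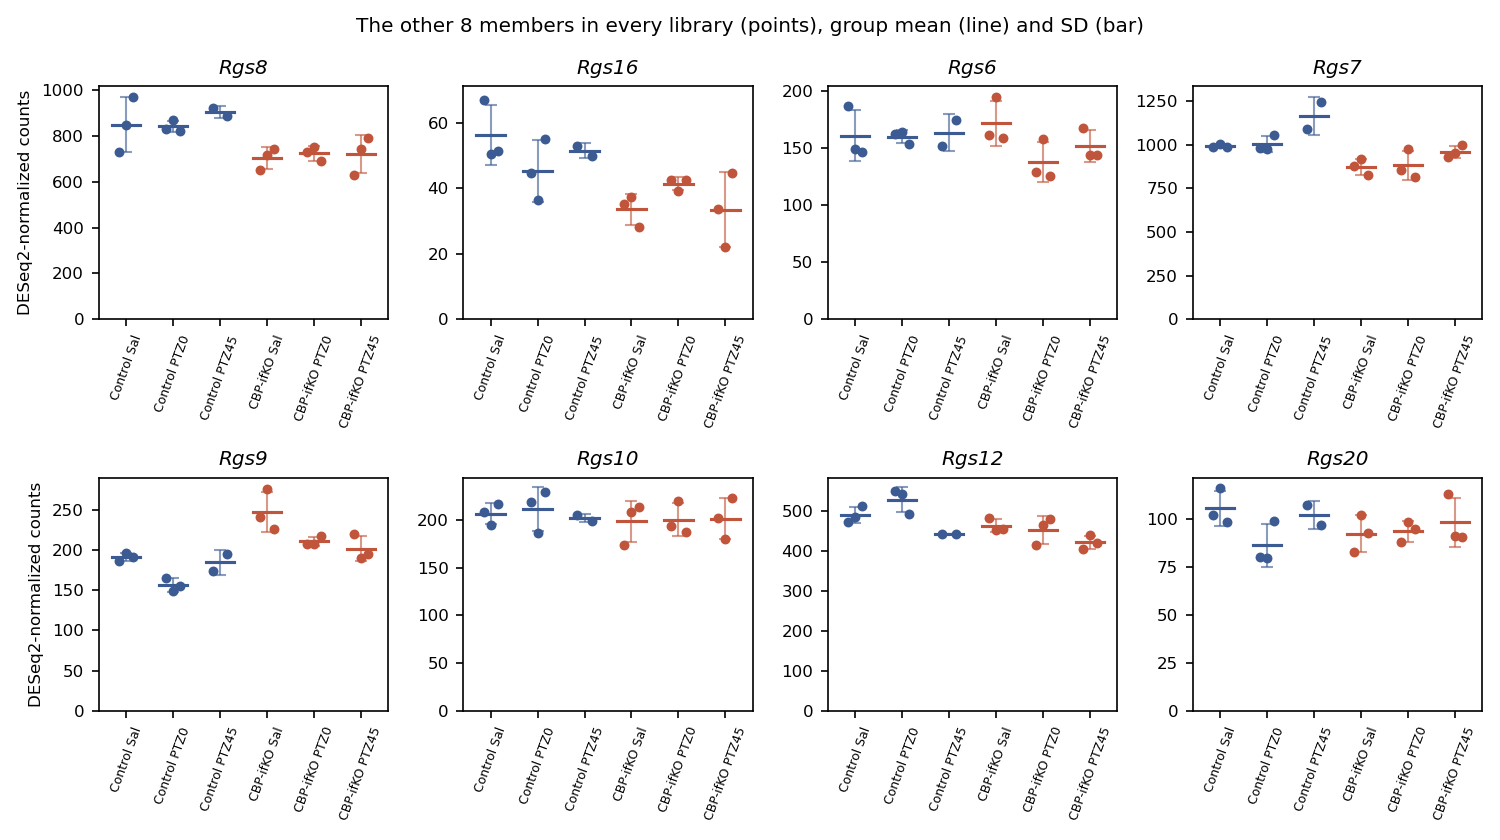
Normalized counts of the 8 other RGS genes by group, with each library as a point, the group mean as a line and the SD as a bar (n = 3, and 2 in Control PTZ45). Rgs7 and Rgs8 are lower and Rgs9 higher on average in CBP-ifKOs, and the largest mean, for Rgs7 in Control PTZ45, is 1167.

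Kindling followed by saline left no called change in this family. DESeq2 called 0 of 10 members in Control PTZ0 against Sal, a comparison within lane 3 in which 0.00843% of all genes were called, with 1 at an unadjusted p under 0.05 (Rgs9) and 0 by edgeR. Rgs9 had 187, 197 and 192 normalized counts in Control Sal and 166, 149 and 155 in PTZ0, without overlap (log2 fold change -0.29, SE 0.15, adjusted p = 1). In CBP-ifKO PTZ0 against Sal 0 of 10 were called, where 0.0112% of all genes were, with 0 at an unadjusted p under 0.05 and 0 by edgeR. The log2 fold changes of Rgs2 were 0.06 (-0.14 to 0.26) in Controls and 0.14 (-0.11 to 0.39) in CBP-ifKOs, and those of Rgs4 were 0.13 (-0.04 to 0.29) and 0.06 (-0.13 to 0.24).

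Rgs4 was lower in CBP-ifKOs whatever the treatment. All 9 CBP-ifKO libraries, at 1063 to 1407 normalized counts, lay below all 8 Control libraries, at 1607 to 3437. In Sal the level was 63% of that in Controls (log2 fold change -0.67, SE 0.11, adjusted p = 1.77e-07), and Rgs4 was the only member called of 10, where 2.04% of all genes were called. In PTZ0 it was 60.2% (-0.73, SE 0.07, adjusted p = 1.56e-20), the only call among the 9 members with an adjusted p, where 6.68% of all genes were called. In PTZ45 it was 41% (-1.29, SE 0.10, adjusted p = 2.3e-37). These 3 calls held under all 13, 13 and 12 alternatives. The median log2 fold change of the members was -0.20 in Sal, -0.21 in PTZ0 and -0.19 in PTZ45, beside -0.00, 0.00 and 0.00 for all genes.

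Rgs2 differed between genotypes mainly after PTZ. In PTZ45 its level in CBP-ifKOs was 29.4% of that in Controls (log2 fold change -1.77, SE 0.11, adjusted p = 1.46e-52), and with Rgs4 it made 2 of 10 members called, where 3.07% of all genes were called. In Sal its libraries did not overlap between genotypes, at 384 to 391 and 305 to 328 normalized counts, and the log2 fold change was -0.30 (-0.54 to -0.06, adjusted p = 0.262). A single fit of all 17 libraries called this difference (-0.29, adjusted p = 0.0402). A single fit also called Rgs7 in PTZ45 (-0.28, adjusted p = 0.0395, and 0.167 in the comparison fitted alone). In PTZ0 the log2 fold change of Rgs2 was -0.21 (-0.43 to 0.01, adjusted p = 0.307).

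**Figure D5:**
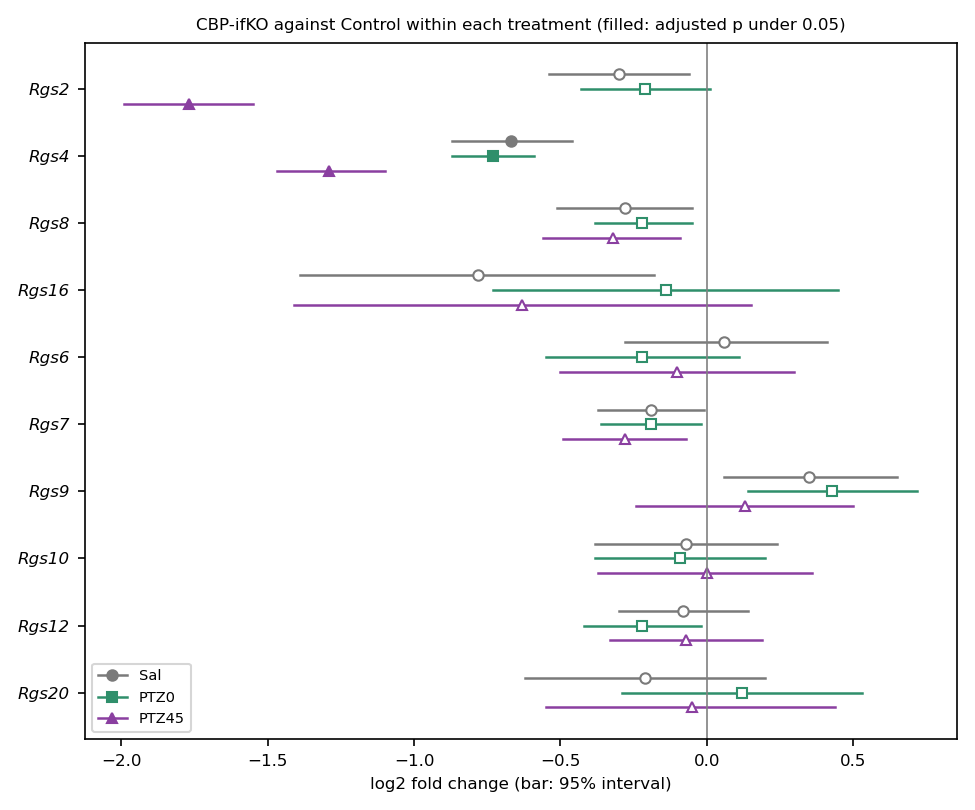
Log2 fold change of each RGS gene in CBP-ifKOs against Controls in Sal (circles), PTZ0 (squares) and PTZ45 (triangles), with 95% intervals, filled where the adjusted p is under 0.05. Rgs4 is filled in all treatments, from -0.67 to -1.29, Rgs2 is filled in PTZ45 at -1.77, and Rgs9 lies above 0 in each.

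With the treatments fitted together, 6 of the 10 members differed between genotypes, 5 lower and 1 higher in CBP-ifKOs, in a fit that called 19.3% of all tested genes and 23.3% of those whose mean reached 30 normalized counts, as that of each member does. Lower were Rgs4 (log2 fold change -0.87, SE 0.08, adjusted p = 1.2e-25), Rgs2 (-0.70, SE 0.19, adjusted p = 0.00289), Rgs16 (-0.51, SE 0.16, adjusted p = 0.00873), Rgs8 (-0.27, SE 0.06, adjusted p = 6.59e-05) and Rgs7 (-0.22, SE 0.04, adjusted p = 2.65e-05). The value for Rgs2 averages over treatments that differ. Rgs9 was higher (0.32, SE 0.07, adjusted p = 0.000109). All 6 calls held in all 24 alternatives of this fit. Rgs12 was at -0.13 (-0.22 to -0.03, adjusted p = 0.0549) and was called in 4 of the 24 (adjusted p = 0.0474 by edgeR, 0.0429 with Control Sal replicate 1 left out, 0.0388 with replicate 1 of CBP-ifKO Sal left out and 0.0453 with replicate 2 of CBP-ifKO PTZ45 left out), while Rgs6, Rgs10 and Rgs20 were at -0.09, -0.06 and -0.05, not called in any.

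Rgs9 was the member that went up. It had 241, 276 and 227 normalized counts in CBP-ifKO Sal against 187, 197 and 192 in Controls, 208, 208 and 218 in PTZ0 against 166, 149 and 155, and 220, 191 and 195 in PTZ45 against 174 and 196. The genotypes did not overlap in Sal or PTZ0, and did in PTZ45. In PTZ0 alone its log2 fold change was 0.43 (0.14 to 0.72) with an adjusted p of 0.0514, and 4 of 13 alternatives called it. Since Rgs9 is typical of striatum, markers of striatal neurons were summed over 6 genes. They were at 249 to 434 normalized counts in CBP-ifKOs and 327 to 508 in Controls, with medians of 280 and 392, while the medians of Rgs9 were 218 and 181. The 3 CBP-ifKO libraries high in choroid plexus markers had the highest sums of that genotype, at 388 to 434, and the other 6, at 249 to 290, lay below all Controls. Over all treatments 2 striatal markers of the 5 with an adjusted p were called lower, where 19.3% of all genes were called.

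The smaller differences were of 1.16-fold to 1.43-fold. Rgs7 had 816 to 999 normalized counts in CBP-ifKOs (median 917) and 976 to 1243 in Controls (median 996). Rgs8 had 631 to 791 (median 729) against 729 to 971 (median 859), and Rgs16, the least abundant in counts, 22 to 44.8 (median 37.4) against 36.3 to 67 (median 51). For each of these 3 genes the ranges of the genotypes overlapped.

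Markers of several cell types moved with the genotype as well, and the calls below are from the fit over all treatments, where 19.3% of all genes were called. The summed counts of 4 CA1 pyramidal cell markers were 1609 to 2280 in CBP-ifKOs and 2358 to 2896 in Controls, without overlap, and 3 of the 4 were called lower. Those of 4 CA3 markers were 1992 to 2338 and 2229 to 2503, with 2 called lower. The sums of 5 excitatory neuron markers overlapped, at 30958 to 40057 and 26766 to 35084, with 1 called higher. Those of 6 interneuron markers were 5752 to 6484 (median 6128) and 6438 to 6799 (median 6612), which overlap between 6438 and 6484, and 2 of the 6 were called lower. Astrocyte markers (6 genes) summed to 12916 to 15592 with a median of 13566 in CBP-ifKOs and to 14439 to 15857 with a median of 15310 in Controls, and 2 of the 6 were called lower. Dentate granule cell markers (4 genes) summed to 2821 to 3856 and 2459 to 3606, with 2 called higher and 1 lower. Endothelial and mural cell markers (6 genes) summed to 1278 to 1682 in CBP-ifKOs and 1379 to 1641 in Controls. Of these 6, 0 were called by DESeq2 or edgeR and 0 had an unadjusted p under 0.05. Microglial markers, which bear on Rgs10, were at 2222 to 3004 and 2561 to 2938, and oligodendrocyte markers at 28266 to 39182 and 30140 to 40093, with 0 of 6 called in either list by DESeq2 or edgeR and 0 and 4 at an unadjusted p under 0.05. After PTZ and in the interactions, 0 genes of the CA1, dentate, excitatory, CA3, interneuron, astrocyte, endothelial, microglial and oligodendrocyte lists were called by DESeq2 or edgeR. The shares of all genes called there were 0.0872% to 1.25%. In the interaction over Sal the list medians on the log2 scale were -0.23 for CA1, -0.20 for dentate granule cell and -0.17 for excitatory neuron markers, 0.27 for microglial and 0.28 for oligodendrocyte markers, beside -0.00 for all genes. There they were 0.05 for CA3, 0.00 for interneuron, 0.12 for astrocyte and -0.08 for endothelial and mural cell markers. All 6 microglial and all 6 oligodendrocyte markers were above 0, and 0 and 1 of them had an unadjusted p under 0.05, as did 1 of 4, 0 of 4 and 1 of 5 of the CA1, dentate and excitatory lists. In the interaction over PTZ0 the medians were -0.10 for CA1, -0.14 for dentate, -0.17 for excitatory, 0.15 for microglial and 0.29 for oligodendrocyte markers. In CBP-ifKO PTZ45 against Sal the medians were -0.37 for CA1, -0.32 for dentate and -0.18 for excitatory markers, with 2 of 4, 2 of 4 and 4 of 5 at an unadjusted p under 0.05. Those of CA3 and interneuron markers were 0.04 and 0.08, with 0 of 4 and 0 of 6. The part of these markers in the genotype differences and PTZ responses of the RGS genes was not tested.

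The family outside the 10 was checked in a list of 13 further genes with an RGS domain, of which 8 to 13 had an adjusted p, depending on the comparison. None was called after PTZ in either genotype or in an interaction by DESeq2 or edgeR, where the shares of all genes called were 0.0872% to 1.25% and 9 to 12 genes of the list were tested. At an unadjusted p under 0.05 there was 1 in each of the control comparisons and 0 in the CBP-ifKO comparisons and interactions. Rgs17, chosen after its values were seen, gained a call in Control PTZ45 against PTZ0 in 1 of 12 alternatives (adjusted p = 0.0235, and 0.48 in the comparison as fitted). Rgs14, which is enriched in CA2 pyramidal cells, was the only gene of the list called in each single treatment, lower in CBP-ifKOs, among 9 tested in Sal, 8 in PTZ0 and 9 in PTZ45, where 2.04%, 6.68% and 3.07% of all genes were called. It had 862, 1031 and 921 normalized counts in Control Sal and 351, 434 and 528 in CBP-ifKO Sal (log2 fold change -1.10, SE 0.14, adjusted p = 4.59e-12), with -1.14 in PTZ0 and -1.03 in PTZ45, and all CBP-ifKO libraries lay below all Controls. Over all treatments 4 of 9 tested genes were called, where 19.3% of all genes were. Beside Rgs14 these were Rgs19 (0.33, adjusted p = 0.000176) and Rgs11 (0.27, adjusted p = 0.000966), higher, and Rgs5 (-0.18, adjusted p = 0.00123), the neighbour of Rgs4 and a marker of pericytes, lower. Rgs5 falls outside the naming rule and was chosen after its values were seen.

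The partners of the R7 proteins were measured as well. Of the 5 genes (Gnb5, the membrane anchors Rgs7bp and Rgs9bp, and the receptors Gpr158 and Gpr179 that bind R7 complexes) 3 had an adjusted p over all treatments, and 2 were called lower in CBP-ifKOs, Gpr158 at -0.12 (adjusted p = 0.00188) and Gnb5 at -0.13 (adjusted p = 0.0233), in the fit that called 19.3% of all genes. The call of Gnb5 was lost in 7 of 24 alternatives and that of Gpr158 in 1. Rgs7bp, at -0.11 (adjusted p = 0.0923), gained a call in 4 of 24. In Control PTZ45 it had 4186 and 4697 normalized counts against 3674 to 3996 in PTZ0 (0.21, adjusted p = 0.152). There 1 of 12 alternatives called it, and it was chosen after its values were seen. Rgs9bp and Gpr179 reached at most 14.5 and 14.2 normalized counts and had no adjusted p over all treatments.

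The G proteins that RGS proteins act on were also measured. Of 13 alpha subunits none was called after PTZ in either genotype by DESeq2 or edgeR, with at most 3 at an unadjusted p under 0.05 in a comparison, where 0.0872% to 1.25% of all genes were called. In Control PTZ45 against PTZ0, 1 of 12 alternatives called Gnao1 (adjusted p = 0.0214) and 1 called Gna11 (adjusted p = 0.0344), both chosen after their values were seen. Over all treatments 3 were called lower in CBP-ifKOs and 1 higher, where 19.3% of all genes were called, 2157 lower and 1449 higher. The median of the list was 0.00 beside 0.01 for all genes. Gnaq, the Gq subunit that RGS2 and RGS4 act on, was at -0.20 (adjusted p = 9.71e-05) and Gnaz, the Gz subunit, at -0.24 (adjusted p = 0.000265). Gnal, the stimulatory subunit typical of striatum and olfactory epithelium, was at 0.20 (adjusted p = 1.58e-06). In PTZ45 alone Gnaq had 2881, 2757 and 2553 normalized counts in CBP-ifKOs and 3605 and 3353 in Controls (-0.35, adjusted p = 0.00572), a call lost in 6 of 12 alternatives.

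Of 14 beta and gamma subunits, Gnb2 was called lower in Control PTZ45, at 1275 and 1079 normalized counts against 1482 to 1571 in Sal (log2 fold change -0.38, adjusted p = 0.0204) and 1391 to 1569 in PTZ0 (-0.32, adjusted p = 0.0482). Of 12 alternatives, edgeR among them, 8 lost the first call and 10 the second. Between genotypes over all treatments 10 of the 14 had an adjusted p and 3 were called, where 19.3% of all genes were. Gng4 was called higher (0.29, adjusted p = 0.000134), and Gng7 (-0.24, adjusted p = 0.00273) and Gng2 (-0.17, adjusted p = 0.00298) lower. Gng4 was also called in PTZ0 (0.38, adjusted p = 0.0444), a call lost in 9 of 13 alternatives.

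Of 17 effectors, the adenylyl cyclases, phospholipases C beta and GIRK potassium channels that G proteins control, 16 had an adjusted p over all treatments. Of these, 6 were called lower in CBP-ifKOs and none higher, where 19.3% of all genes were called, with a list median of -0.11 beside 0.01 for all genes. The 3 with the smallest adjusted p were Kcnj9, a GIRK subunit (-0.31, adjusted p = 6.46e-09), and the cyclases Adcy5 (-0.30, adjusted p = 2.84e-07) and Adcy8 (-0.34, adjusted p = 8.92e-05). The same 3 were called in PTZ0, of 14 with an adjusted p and where 6.68% of all genes were called. Adcy5 was at -0.37, Adcy8 at -0.43 and Kcnj9 at -0.26. Those calls were lost in 1, 6 and 8 of 13 alternatives. In PTZ45, Kcnj9 was called again (-0.41, adjusted p = 0.0229) and the call was lost in 6 of 12. After PTZ in Controls, Kcnj3, the GIRK1 subunit, was called against PTZ0, at 3383 and 3810 normalized counts against 2959 to 3069 (0.25, adjusted p = 0.048), a call lost in 11 of 12 alternatives, edgeR among them. In the interactions DESeq2 and edgeR called 0 genes of the lists of partners, subunits and effectors, with 1 alpha subunit at an unadjusted p under 0.05.

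The genes whose pattern over the 17 libraries was most like that of Rgs2, by Pearson's r of log2(normalized count + 1) among 13041 genes, were Ptgs2 (0.99), Ifrd1 (0.98), Btg2 (0.97), Ovca2 (0.97) and Nr4a2 (0.97). Ptgs2 encodes the inducible cyclooxygenase, Btg2 an antiproliferative factor and Nr4a2 an orphan nuclear receptor. Since the 2 Control PTZ45 libraries stand apart, r was also taken over the other 15, where it was 0.97 for Ptgs2, 0.72 for Ifrd1, 0.71 for Btg2, 0.48 for Ovca2 and 0.64 for Nr4a2. Ptgs2 had 385 to 393 normalized counts in Control Sal, 1714 to 2274 in Control PTZ45, 276 to 295 in CBP-ifKO Sal and 422 to 454 in CBP-ifKO PTZ45.

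For Rgs4 the most similar genes were Map2k4 (0.95), Kcnj2 (0.94), Nptx2 (0.94), Arpp19 (0.93) and Atf4 (0.93), and without Control PTZ45 these values were 0.93, 0.85, 0.91, 0.89 and 0.84. Nptx2, a neuronal pentraxin, had 93.5 to 121 normalized counts in Control Sal, 171 to 231 in Control PTZ45, 42.3 to 62.8 in CBP-ifKO Sal and 55 to 73.6 in CBP-ifKO PTZ45. Rgs2 and Rgs4 correlated with each other at 0.86, and at 0.71 without Control PTZ45, and Rgs4 ranked 84 in likeness to Rgs2. The libraries share treatment, genotype and lane, so these values describe likeness only.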

How the data were processed

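Total RNA of the hippocampus was sequenced as single-end 50 base reads. The authors trimmed reads with Trim Galore 0.6.4, aligned them with STAR 2.6.1 to GRCm38, kept reads with a mapping quality above 10 and counted exons of Ensembl release 99 with Rsubread, and deposited raw counts per gene. Of 18 count columns, 1 matched no sample in the labels and was not analysed here. Its name has the form of those of Control PTZ45, the group with 2 libraries. Symbols and positions came from GENCODE M21 and promoter sequences from RefSeq.

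Each comparison was fitted alone on the counts of all genes with the Wald test of DESeq2 1.42.0 in R 4.3.3 (the authors used DESeq2 1.30.1), and p-values were adjusted over all genes by the Benjamini-Hochberg method with independent filtering (called at an adjusted p under 0.05). Normalized counts are counts divided by size factors over 17 libraries. The genotype over all treatments was fitted with treatment as a term. The scripts were tested on simulated data.

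Alternatives were edgeR 4.0.16 (quasi-likelihood test), TMM size factors, a filter of at least 10 counts in 2 libraries, 1 fit of all libraries, a replicate block and leaving out each library. A GC correction and the omission of the 5 libraries high in choroid plexus markers were added after seeing the data. The 10 members, the gene lists and these tests were chosen with earlier results of these data known. All members are named, as are, from each RGS, G protein, partner and effector list, called genes (at most 3 per comparison by smallest adjusted p), the 5 genes most similar to Rgs2 and to Rgs4 (genes whose mean reached 50 normalized counts), and the check genes.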

Additional observations from a re-analysis of the deposited data

Results flagged for a closer look

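Rgs2 and Rgs4 were singled out because their responses to PTZ differed between genotypes by a test of the difference itself. The log2 interaction of Rgs2 was -1.48 over Sal and -1.56 over PTZ0, and that of Rgs4 was -0.62 over Sal and -0.55 over PTZ0. Both genes were higher in 2 of 2 Control PTZ45 libraries than in any other control library. The Control and CBP-ifKO libraries were sequenced in different lanes, except that CBP-ifKO Sal shared a lane with Control PTZ45, and the part of the lane was not tested. The part of seizures, which progressed in Controls and not in CBP-ifKOs in the study, was not tested either.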

How the results depend on the processing

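Of 18 member values called, tried under 314 alternatives in all, 11 alternatives lost the call and 0 reversed it, all of them for the interactions of Rgs4. The count of members called moved as follows, by more than 1.5 times unless stated. A single fit of all 17 libraries called 1 member in CBP-ifKO PTZ45 against Sal in place of 0, and 2 between genotypes in Sal in place of 1. In PTZ45 it called 3 in place of 2, adding Rgs7, which is within 1.5 times. Over all treatments 4 alternatives called 7 in place of 6, adding Rgs12, also within 1.5 times. Between genotypes in PTZ0 edgeR, TMM size factors and the fit of all 17 libraries called 2 in place of 1, adding Rgs9, the GC correction called 3, adding Rgs7 and Rgs9, and leaving out 1 library gave 1 to 2, with Rgs7 added without CBP-ifKO PTZ0 replicate 2. For the interaction over Sal, edgeR, the replicate block and the omission of the 5 libraries high in choroid plexus markers called 1 member in place of 2, and leaving out 1 library gave 1 to 2. For the interaction over PTZ0 the omission of these 5 libraries called 1 in place of 2, and leaving out 1 library gave 1 to 2. Why the counts moved was not tested. Replicate numbers were not taken to pair the samples in the main fits. Of 40 pairs of libraries with the same number, 15 had deviations that correlated above 0.1 (range -0.523 to 0.532). A pair with unlike numbers, CBP-ifKO Sal 1 and CBP-ifKO PTZ0 3, both high in choroid plexus markers, reached 0.725. Such shared deviations mean that this check cannot decide whether the numbers pair the samples. Under the replicate block the interaction of Rgs4 over Sal had an adjusted p of 0.0516 (log2 interaction -0.61). Of 102 uncalled member values, 13 of 1426 alternatives gained a call and 79 changed the sign of a value that stayed uncalled. Control PTZ45 has 2 libraries, and Rgs16, with 22 to 67 normalized counts, is measured least precisely.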
